A study of Homo sapiens with 6 samples.

Results

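Cadherins, protocadherins and catenins were taken from the read count table of DU145 cells as the rows whose symbol is CDH with a number, PCDH with further letters or digits, or 1 of the catenin symbols CTNNA1 to CTNNA3, CTNNB1, CTNND1 and CTNND2. This gave 83 genes of 33835, of which 61 passed the filter on low counts and were tested. They were 5 catenins, 19 cadherins, 51 protocadherins of the alpha, beta and gamma clusters and 8 protocadherins outside the clusters. The family is not covered in full. CTNND2 had no row, and neither had others such as CDH8, CDH11, CDH13, CDH19 and PCDH7. Their levels are not known from these data. DU145 is an established human prostate cancer line. The knockdown cells carried a short hairpin against E6AP (shE6AP, 3 libraries), the ubiquitin ligase encoded by UBE3A, and the others a construct that the labels call a wobble control, with no sequence given (wobble, 3 libraries). Both groups received doxycycline at 0.2 µg/ml for 2.5 days. It is not stated whether a group is a pool or a clone of transduced cells, or whether its libraries are separate cultures. The p-values therefore rest on a spread between libraries that may be technical.

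Cadherins are calcium-dependent adhesion proteins that bind cadherins of the neighbouring cell. The classical ones hold beta-catenin and p120-catenin on their cytoplasmic tail, and alpha-catenin ties beta-catenin to actin at the adherens junction; beta-catenin outside the junction also acts with TCF factors in Wnt signalling. Clustered protocadherins are best known from neurons, where each cell uses a choice of promoters, each serving its own variable exon, and cells recognise each other by the isoforms they share. Prostate epithelium is known for E-cadherin (CDH1), and its basal cells also for P-cadherin (CDH3).

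The 4 beta protocadherin promoters below are shown because their genes moved in opposite directions: PCDHB14 and PCDHB5 rose and PCDHB2 and PCDHB9 fell, as described further on. Each line gives the 150 bases before the RefSeq start (GRCh38.p14, plus strand, 5′ to 3′), at chr5:141223193-141223342 for PCDHB14, chr5:141135056-141135205 for PCDHB5, chr5:141094465-141094614 for PCDHB2 and chr5:141187011-141187160 for PCDHB9. Capitals mark the 9 letters GGTGGCGCT and any further CGCT.
PCDHB14: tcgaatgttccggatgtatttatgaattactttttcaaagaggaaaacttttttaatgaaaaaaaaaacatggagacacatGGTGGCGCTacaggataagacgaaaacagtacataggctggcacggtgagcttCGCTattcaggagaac
PCDHB5: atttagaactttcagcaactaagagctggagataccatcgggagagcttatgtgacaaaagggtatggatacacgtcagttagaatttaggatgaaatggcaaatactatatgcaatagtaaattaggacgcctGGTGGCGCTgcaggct
PCDHB2: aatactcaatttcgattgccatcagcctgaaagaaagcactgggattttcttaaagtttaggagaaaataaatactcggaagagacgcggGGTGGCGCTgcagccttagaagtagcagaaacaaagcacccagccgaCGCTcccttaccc
PCDHB9: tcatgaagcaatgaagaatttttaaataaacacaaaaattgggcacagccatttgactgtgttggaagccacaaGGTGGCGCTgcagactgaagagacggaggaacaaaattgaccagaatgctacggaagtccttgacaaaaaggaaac
CGCT is the core of an element described for clustered protocadherin promoters, and GGTGGCGCT, which contains it, was picked after reading these promoters. In windows of 300 bases around the RefSeq start, CGCT on the gene's strand was in 45 of 46 cluster promoters (42 genes matched), against 54.3% of all 35116 promoters, and on either strand in 45 of 46 against 70.0%. GGTGGCGCT on either strand was in 13 of 14 beta promoters, 0 of 13 alpha and 0 of 19 gamma promoters and 0.501% of all promoters. It began 69 and 16 bases before the start in PCDHB14 and PCDHB5, which rose, and 60 and 76 bases before it in PCDHB2 and PCDHB9, which fell. With the letters in 13 of 14 beta promoters, their presence could not tell rising from falling genes, and a match is not a binding site.

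Each library held 21558506 to 30488217 reads in genes. A level is given in CPM, gene reads after TMM has brought the libraries to equal size, and 1 read was worth 0.033 to 0.0468 CPM. Fold changes divide shE6AP by wobble, are given as log2 values and carry a standard error (SE), and a gene is said to have risen or fallen where edgeR's quasi-likelihood test gave a Benjamini-Hochberg adjusted p under 0.05 over all 19433 genes tested. UBE3A itself had 14.5 ± 0.376 CPM in shE6AP and 55.8 ± 1.96 CPM in wobble (SD, n = 3 each), with 406, 309 and 359 raw reads in shE6AP and 1637, 1602 and 1570 in wobble, and a log2 fold change of -1.94 (adjusted p = 2.55e-31; two-sided exact permutation p = 0.1, which 3 libraries against 3 cannot go below). All 9 epithelial markers looked up were present, with a summed level of 1803 to 1815 CPM in shE6AP and 1569.8 to 1609.5 CPM in wobble, and 6 of them rose and 3 fell. Of the endothelial, fibroblast and blood markers that could be looked up, 5 of 7, 5 of 7 and 3 of 6 were below 1 CPM in all libraries. Summed endothelial markers ran from 24.5 to 26.4 CPM in shE6AP and 20.7 to 22.3 CPM in wobble, fibroblast markers from 18 to 19.5 CPM in shE6AP and 13.8 to 16.9 CPM in wobble, and blood markers from 6.27 to 7.54 CPM in shE6AP and 3.72 to 4.63 CPM in wobble. Of 8 neural and neuroendocrine markers, 3 were below 1 CPM in all libraries, and the sum of the 8 was 85.7 to 89.0 CPM in shE6AP and 122 to 133 CPM in wobble. In that list 3 rose (ENO2, MAP2 and NCAM1) and 2 fell (SYP and TUBB3), and TUBB3 alone had 28.8 ± 0.376 CPM in shE6AP and 79.9 ± 4.86 CPM in wobble. Of the endothelial markers 2 rose and 2 did not pass, of the fibroblast markers 1 rose and 1 fell, and of the blood markers 2 rose and 1 fell. The part of any of these cell types in the results was not tested.

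Of the 61 tested members, 17 rose, 11 fell and 33 did not pass. That is 45.9% called, where 59% of all genes tested were called, 28.6% as higher and 30.4% as lower. The members' share thus lay below that of all genes. Members had a median level of 1.74 CPM against 14.2 CPM over all genes tested. Their median fold change was 0.13, beside 0.00836 over all genes tested, and the median of its size was 0.355, beside 0.264. Called and at least doubled were CDH26, PCDHB11 and PCDHB15, and called and at least halved were CDH18 and PCDHB17, where 3.23% and 3.51% of all genes tested were doubled and halved. The groups did not overlap in 20 members that were higher and 15 that were lower in shE6AP, beside 30.6% and 31.9% of all genes tested, or 62.6% in both directions. In bulk RNA, fewer cells using a gene and less of its RNA per cell cannot be told apart, which bears most on the clustered protocadherins. With other settings the share of all genes tested that was called was 59.1% with RLE scaling, 59.5% with upper-quartile scaling, 59% with library totals, 50.7% with DESeq2, 58.8% with limma-voom and 61.6% with the replicate number as a block. It was 34.1% with no filter on low counts, 66.6% with a filter of 1 CPM in 3 libraries, 29% and 9.29% with glmTreat against folds of 1.2 and 1.5, 34.7% and 11.5% with an assumed variation of 0.1 and 0.2, and 54.2% to 56% with 1 library left out. The 22 members under the filter held at most 30 reads in the 3 libraries of a group.

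**Figure D1:**
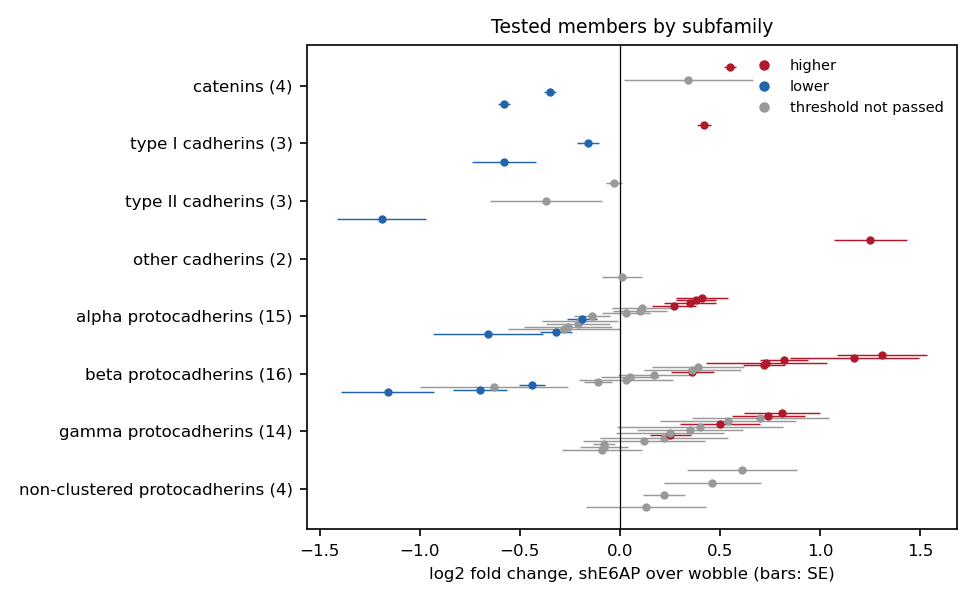
Fold changes on a log2 axis, shE6AP over wobble (horizontal, bars give the SE), for the 61 tested members, each a point, by subfamily (vertical axis, number tested in brackets). Red points rose, blue points fell and grey points did not pass; the alpha and beta protocadherins lie on both sides of 0, while the 4 gamma calls, of 14 genes tested, lie to the right.

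Of the 5 catenins taken here, the 3 with the most reads did not move together: alpha-catenin transcripts rose while beta- and p120-catenin transcripts fell. JUP, or gamma-catenin, lies outside the family rule and is counted among the adherens junction partners below. It fell, with 171.9 ± 3.21 CPM in shE6AP and 203.5 ± 6.61 CPM in wobble (-0.24, SE 0.0336, adjusted p = 2.89e-08). JUP was named after its values were seen. Log2 fold changes stand in brackets with their SE. CTNNA1, alpha-catenin, which ties the cadherin complex to actin, had 619, 632 and 625 CPM in shE6AP and 431, 426 and 425 CPM in wobble. All shE6AP libraries lay above all wobble libraries (0.55, SE 0.0308, adjusted p = 1.18e-19). CTNNB1, beta-catenin, had 279.5, 273 and 277 CPM in shE6AP and 418, 409.9 and 410.3 CPM in wobble. Each shE6AP library lay far below each wobble library (-0.58, SE 0.0313, adjusted p = 3.9e-20). CTNND1, p120-catenin, which keeps cadherins at the membrane, had 278, 288 and 283 CPM in shE6AP and 364, 362 and 361 CPM in wobble. It was lower in every shE6AP library (-0.35, SE 0.0314, adjusted p = 2.64e-13). For all 3 the groups were apart by many times their spread. CTNNA2, the neural alpha-catenin, had 38 reads over the shE6AP libraries and 35 over the wobble libraries and did not pass (0.34, SE 0.322, adjusted p = 0.391). CTNNA3, the alpha-catenin of heart muscle, had 8 reads over the shE6AP libraries and 2 over the wobble libraries and was not tested.

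The opposite movements changed the balance of catenin reads while their sum differed little. CTNNA1 had 2.21, 2.32 and 2.25 reads for each CTNNB1 read in shE6AP and 1.03, 1.04 and 1.04 in wobble, a difference of 1.13 on the log2 scale. CTNND1 had 0.996, 1.06 and 1.02 reads for each CTNNB1 read in shE6AP and 0.871, 0.882 and 0.880 in wobble, again without overlap. The summed level of the 5 catenins, without JUP, was 1185.7 ± 8.19 CPM in shE6AP and 1202.3 ± 9.26 CPM in wobble (SD, n = 3 each). Though close, the groups did not overlap: the sum ran from 1177.4 to 1193.7 CPM in shE6AP and from 1196.3 to 1212.9 CPM in wobble. The ratios count reads, which also depend on transcript length. Per kilobase of exon shared with no other gene in GENCODE release 29, an approximation because the annotation used for counting is not given in the sources used here, the level of CTNNA1 was 160 ± 1.68 CPM per kb in shE6AP and 109 ± 0.853 CPM per kb in wobble. For CTNND1 it was 43.1 ± 0.734 CPM per kb in shE6AP and 55.1 ± 0.241 CPM per kb in wobble, and for CTNNB1 35.2 ± 0.431 CPM per kb in shE6AP and 52.5 ± 0.555 CPM per kb in wobble. CTNNA1 led on this scale in both groups, followed by CTNND1 and then CTNNB1. The length pools the exons of all annotated transcripts: 3918 bases for CTNNA1, 6573 for CTNND1 and 7857 for CTNNB1. Transcripts in use may be shorter, so the order of the genes per transcript is not known. The same limit applies to the levels per kb of the cadherins below.

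**Figure D2:**
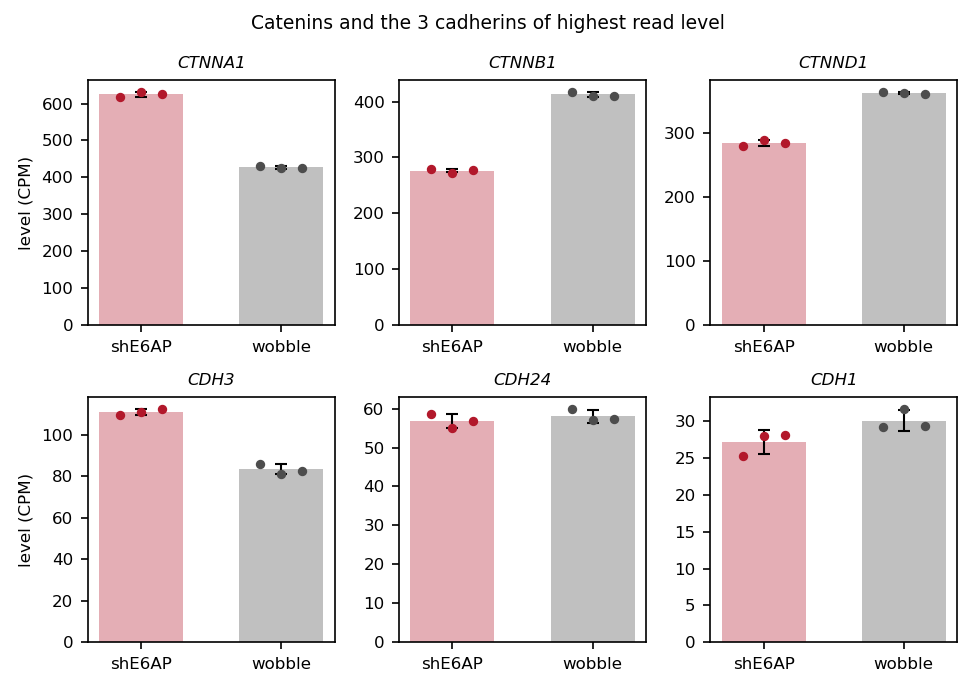
Level in CPM (vertical axis, linear and from 0) of 3 catenins and of the 3 cadherins with the most reads, in shE6AP and wobble; each point is a library, the bar is the mean of 3 and the whisker the SD. CTNNA1 and CDH3 are higher in every shE6AP library, CTNNB1 and CTNND1 lower, and CDH24 overlaps.

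Among classical type I cadherins P-cadherin rose and E-cadherin fell slightly. CDH3, P-cadherin, had 109.7, 111 and 112 CPM in shE6AP and 85.9, 81.2 and 82.7 CPM in wobble. It was higher in every shE6AP library (0.42, SE 0.0361, adjusted p = 1.62e-13). CDH1, E-cadherin, had 25.2, 27.9 and 28.1 CPM in shE6AP and 29.2, 31.6 and 29.3 CPM in wobble. Its groups did not overlap, but the difference was small (-0.16, SE 0.0527, adjusted p = 0.0104). The CDH1 call ended with DESeq2, with glmTreat against a fold of 1.2, without shE6AP library 1 (fold change -0.10) and without wobble library 2 (-0.12). CDH3 and CDH1 lie next to each other on chromosome 16 (RefSeq, GRCh38.p14), and CDH3 had 4.35, 3.98 and 4.0 reads for each CDH1 read in shE6AP, against 2.94, 2.57 and 2.82 in wobble. By length of unshared exon CDH3 was at 25.6 ± 0.308 CPM per kb in shE6AP and 19.2 ± 0.562 CPM per kb in wobble. CDH1 was at 5.69 ± 0.338 CPM per kb in shE6AP and 6.31 ± 0.289 CPM per kb in wobble, below CDH3 in both groups. CDH15, M-cadherin of muscle, had 2.1, 1.68 and 1.5 CPM in shE6AP and 2.9, 2.49 and 2.58 CPM in wobble. It fell, with no overlap between the groups (-0.58, SE 0.161, adjusted p = 0.00194). CDH2, N-cadherin, the cadherin gained in many mesenchymal cells, was nearly undetected, with 2 reads over the shE6AP libraries and 0 over the wobble libraries, where a count of 0 allows up to 3 reads over a group. CDH4, R-cadherin, had 12 reads over the shE6AP libraries and 14 over the wobble libraries.

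**Figure D3:**
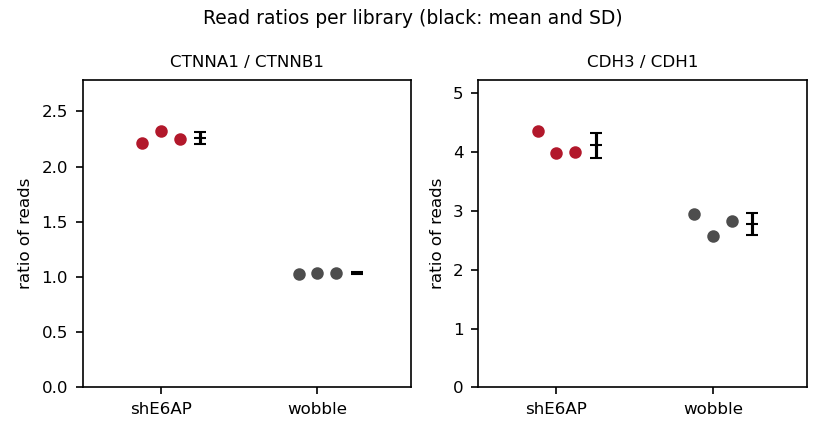
Reads of CTNNA1 for each read of CTNNB1 and reads of CDH3 for each read of CDH1 (vertical axes, ratio of reads, from 0) in shE6AP and wobble; coloured points are libraries and black marks the mean and SD (n = 3 each). The CTNNA1 ratio lies between 2.21 and 2.32 in shE6AP and between 1.03 and 1.04 in wobble.

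Among type II cadherins CDH24, which binds beta- and alpha-catenins, held the most reads. CDH24 had 58.5, 54.9 and 56.8 CPM in shE6AP and 59.9, 57.0 and 57.2 CPM in wobble, the groups overlapped and its fold change was -0.03 (SE 0.0405, adjusted p = 0.529). Its level by length of unshared exon, 16 ± 0.505 CPM per kb in shE6AP and 16.3 ± 0.45 CPM per kb in wobble, stood between those of CDH3 and CDH1. CDH18, a cadherin of the central nervous system, fell at a low level. It had 0.56, 0.702 and 1.08 CPM in shE6AP and 1.62, 1.66 and 2.06 CPM in wobble, or 57 reads over the shE6AP libraries and 153 over the wobble libraries, and a fold change of -1.19 (SE 0.223, adjusted p = 1.06e-05). Every shE6AP library was below every wobble library, and shE6AP library 3 was the highest of its group. CDH7, another type II cadherin, had 45 reads over the shE6AP libraries and 68 over the wobble libraries and did not pass (-0.37, SE 0.278, adjusted p = 0.262). The other 7 type II genes with a row, CDH5, CDH6, CDH9, CDH10, CDH12, CDH20 and CDH22, were not tested. They had at most 30 reads in shE6AP and 24 in wobble. CDH8, CDH11 and CDH19 had no row and cannot be judged. CDH5, VE-cadherin of endothelium, had 26 reads over the shE6AP libraries and 10 over the wobble libraries. CDH22 had 2, 3 and 1 reads in shE6AP and 0 in all wobble libraries. With no filter on low counts CDH5 and CDH22 passed the threshold.

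Among the remaining cadherins CDH26, a cadherin known from epithelium in allergic inflammation, showed the largest rise of the 8 cadherins tested. It had 2.24, 2.25 and 2.5 CPM in shE6AP and 0.957, 0.968 and 0.995 CPM in wobble, with the libraries of a group close together. It rose (1.25, SE 0.183, adjusted p = 9.86e-08), and the call held under every alternative tried. CDH23, a cadherin of the tip links of inner ear hair cells, had 5.67, 5.24 and 5.67 CPM in shE6AP and 5.28, 5.91 and 5.27 CPM in wobble and did not differ beyond its spread (0.01, SE 0.101, adjusted p = 0.915). In GENCODE 80.1% of its exon bases are free of other genes' exons. CDH16, of kidney, had 1 reads over the shE6AP libraries and 2 over the wobble libraries. CDH17, of intestine, had 16 reads over the shE6AP libraries and 13 over the wobble libraries, and neither was tested. Of the 8 cadherins tested, 2 rose (CDH3 and CDH26), 3 fell (CDH1, CDH15 and CDH18) and 3 did not pass. The called share was 62.5%, beside 59% of all genes tested.

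Protocadherins of the alpha cluster were all tested, and single genes moved both ways while their sum overlapped between the groups. Of 15 genes, 4 rose, 3 fell and 8 did not pass, or 46.7% called beside 59% of all genes tested. Their median fold change was -0.14. The summed level of the cluster was 61.1, 60.1 and 60.6 CPM in shE6AP and 60.6, 60.7 and 62.8 CPM in wobble. PCDHA6 and PCDHA3, which took the most reads of the cluster, both fell. PCDHA6 had 9.91, 9.45 and 10.6 CPM in shE6AP and 11.7, 11.3 and 11.3 CPM in wobble (-0.19, SE 0.0753). PCDHA3 had 9.28, 8.52 and 8.62 CPM in shE6AP and 10.4, 11.3 and 11.3 CPM in wobble (-0.32, SE 0.0784). Together with the low PCDHA13, at 0.595, 0.328 and 0.708 CPM in shE6AP and 0.924, 0.761 and 0.958 CPM in wobble, these were the 3 falls. PCDHA4 and PCDHA7 rose: PCDHA4 had 6.31, 7.02 and 6.46 CPM in shE6AP and 4.72, 4.81 and 5.6 CPM in wobble (0.38, SE 0.101), and PCDHA7 4.31, 4.68 and 3.67 CPM in shE6AP and 3.66, 2.7 and 3.13 CPM in wobble (0.41, SE 0.13). Both C-type genes at the end of the cluster were also higher. PCDHAC1 had 4.83, 5.66 and 5.58 CPM in shE6AP and 4.35, 4.39 and 4.5 CPM in wobble, and PCDHAC2 3.54, 3.79 and 3.5 CPM in shE6AP and 2.71, 2.77 and 2.99 CPM in wobble. In these 4 genes every shE6AP library was above every wobble library. The adjusted p of the 7 calls ran from 0.000544 for PCDHA3 to 0.0362 for PCDHA13.

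The other alpha genes showed no difference past the threshold. PCDHA2 had 6.66, 6.92 and 6.12 CPM in shE6AP and 7.09, 7.09 and 7.56 CPM in wobble. PCDHA12 had 4.2, 3.79 and 4.25 CPM in shE6AP and 3.46, 4.25 and 4.35 CPM in wobble. PCDHA5 had 3.78, 2.9 and 3.42 CPM in shE6AP and 3.53, 2.94 and 3.02 CPM in wobble. PCDHA2 was lower in every shE6AP library, and the other 2 overlapped. PCDHA9 had 2.49, 2.62 and 2.33 CPM in shE6AP and 2.34, 2.49 and 2.03 CPM in wobble, and PCDHA11 2.28, 1.68 and 2.12 CPM in shE6AP and 2.54, 2.07 and 2.51 CPM in wobble. PCDHA1 had 1.37, 1.22 and 1.54 CPM in shE6AP and 1.35, 1.8 and 1.62 CPM in wobble, and PCDHA8 0.981, 0.889 and 0.958 CPM in shE6AP and 1.22, 1.18 and 0.995 CPM in wobble; only PCDHA8 of these 4 was lower in every shE6AP library. PCDHA10 stayed below 1 CPM in both groups. With DESeq2 the calls on PCDHA6, PCDHA13, PCDHAC1 and PCDHAC2 ended, and with upper-quartile scaling that on PCDHA6. With glmTreat against a fold of 1.2 all 7 alpha calls ended, and with no filter on low counts that on PCDHAC1. The calls on PCDHA3 and PCDHA4 held whichever library was left out. Those on PCDHA6 (-0.24 to -0.16 with 1 library left out), PCDHA7 (0.30 to 0.53), PCDHA13 (-0.87 to -0.44), PCDHAC1 (0.23 to 0.35) and PCDHAC2 (0.32 to 0.39) did not: PCDHA7 lost its call without wobble library 2, PCDHAC2 without shE6AP library 2 or wobble library 1, PCDHA6 without shE6AP library 1 or 2 or wobble library 1, PCDHA13 without those or wobble library 3, and PCDHAC1 without shE6AP library 2 or 3 or wobble library 1 or 2.

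**Figure D4:**
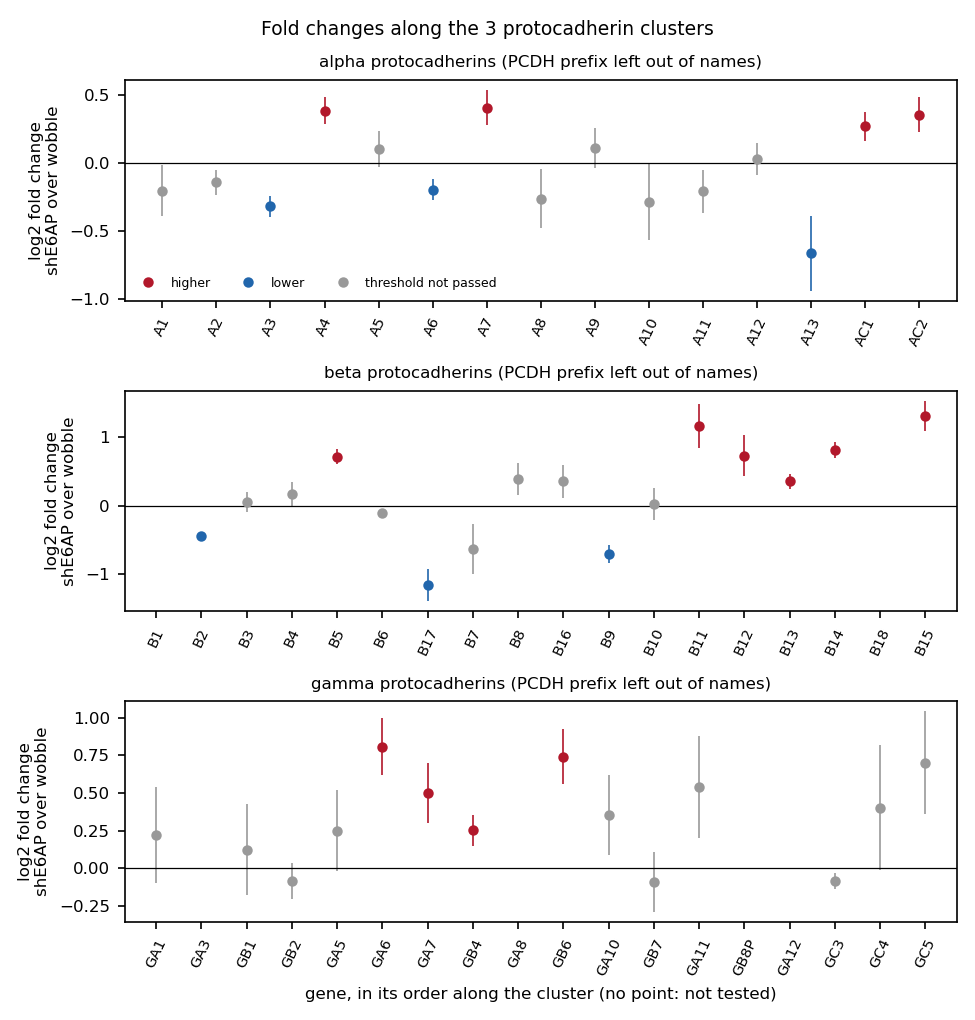
Fold changes on a log2 axis, shE6AP over wobble (vertical, bars give the SE), of the tested protocadherins in their order along the alpha, beta and gamma clusters (horizontal axes, PCDH left out of the names; genes without a point were not tested). Red rose, blue fell and grey did not pass; in the beta panel the tested genes from PCDHB11 to PCDHB15 are all red.

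The beta cluster held the widest movements among the protocadherins, and its last tested genes rose together. Of 16 tested genes 6 rose, 3 fell and 7 did not pass, or 56.2% called beside 59% of all genes tested. Their median fold change was 0.26. In the order of the cluster the 5 tested genes from PCDHB11 to PCDHB15 all rose, a stretch singled out after the values were seen; PCDHB18, among them, was not tested. PCDHB15 had 1.65, 1.31 and 1.83 CPM in shE6AP and 0.759, 0.553 and 0.627 CPM in wobble (1.31, SE 0.225, adjusted p = 2.81e-06). PCDHB14, whose promoter is shown above, had 4.97, 4.91 and 5.5 CPM in shE6AP and 3.0, 2.87 and 2.84 CPM in wobble (0.82, SE 0.119, adjusted p = 8.89e-08). PCDHB13 had 5.11, 5.57 and 5.46 CPM in shE6AP and 4.09, 4.36 and 4.09 CPM in wobble (0.36, SE 0.107). In all 3 the lowest shE6AP library was above the highest wobble library. PCDHB11 and PCDHB12, named although below 1 CPM, had 58 and 50 reads over the shE6AP libraries and 30 and 35 over the wobble libraries. Their fold changes were 1.17 (SE 0.321) and 0.73 (SE 0.301), with adjusted p of 0.00172 and 0.034. The remaining rise, PCDHB5, stood apart in the first part of the cluster. PCDHB5 had 7.29, 6.78 and 7.54 CPM in shE6AP and 4.32, 5.01 and 3.8 CPM in wobble (0.72, SE 0.104, adjusted p = 9.45e-08). DESeq2 and the fit with no filter on low counts did not call PCDHB12. The PCDHB12 call (0.66 to 0.88 with 1 library left out) was lost without any library but shE6AP library 1.

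Other beta genes fell, and the summed level of the cluster overlapped between the groups. PCDHB2, which took 22.5% of the cluster's reads in shE6AP and 30.8% in wobble, had 13.2, 13.1 and 12.9 CPM in shE6AP and 18.7, 17.1 and 17.4 CPM in wobble. It fell (-0.44, SE 0.0651, adjusted p = 1.32e-07). PCDHB9 had 2.8, 2.11 and 2.29 CPM in shE6AP and 3.69, 4.01 and 4.2 CPM in wobble (-0.70, SE 0.136, adjusted p = 1.87e-05). PCDHB17, a pseudogene of the cluster, had 0.841, 0.655 and 0.458 CPM in shE6AP and 1.42, 1.52 and 1.51 CPM in wobble (-1.16, SE 0.232, adjusted p = 3.28e-05). For each of these every shE6AP library was lower than every wobble library. PCDHB6, which took 22.4% of the reads in shE6AP and 24.4% in wobble, had 13.1, 12.6 and 13.3 CPM in shE6AP and 14.6, 13.4 and 14.1 CPM in wobble and did not pass (-0.11, SE 0.068, adjusted p = 0.166). PCDHB3 had 2.59, 2.71 and 2.5 CPM in shE6AP and 2.31, 2.59 and 2.62 CPM in wobble, and PCDHB4 1.96, 2.11 and 1.46 CPM in shE6AP and 1.52, 1.69 and 1.7 CPM in wobble. Neither passed. PCDHB8 had 1.02, 1.59 and 1.21 CPM in shE6AP and 0.693, 1.21 and 0.958 CPM in wobble, and PCDHB16 1.23, 0.702 and 1.17 CPM in shE6AP and 0.693, 0.864 and 0.922 CPM in wobble. The groups overlapped in these 4 genes, and the PCDHB8 difference passed without wobble library 2 (0.60, where it was 0.39 with all libraries). PCDHB7 and PCDHB10 were below 1 CPM and did not pass, and PCDHB1 had 1 read in shE6AP and 0 in wobble. The sum over the 18 beta genes was 58.2, 57.3 and 58.7 CPM in shE6AP and 57.8, 57.5 and 57.4 CPM in wobble, so the groups overlapped.

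In the gamma cluster, 4 genes rose, 0 fell and 10 did not pass by edgeR's test, while 4 more were not tested. Among the 14 tested, 28.6% were called, all as higher. Of all genes tested 59% were called and 28.6% were called as higher, so the share of rises was no larger in this cluster. DESeq2 and limma-voom also called 0 gamma genes as lower. Of the gamma genes lower in shE6AP, 0 had an unadjusted p under 0.05. PCDHGC3, a C-type gene, took 51.1% of the reads of the 18 gamma genes with a row in shE6AP and 57.9% in wobble. It had 22.7, 23.0 and 23.5 CPM in shE6AP and 24.2, 25.2 and 23.8 CPM in wobble. It was a little lower in every shE6AP library without passing (-0.08, SE 0.0533, adjusted p = 0.189). The rises were in genes of the middle of the cluster. PCDHGA6 had 2.0, 2.43 and 2.08 CPM in shE6AP and 1.22, 0.899 and 1.59 CPM in wobble (0.81, SE 0.189, adjusted p = 0.000285). PCDHGB6 had 2.14, 1.68 and 2.29 CPM in shE6AP and 1.35, 1.14 and 1.18 CPM in wobble (0.74, SE 0.183, adjusted p = 0.00055). Both kept every shE6AP library above every wobble library. PCDHGB4 had 5.53, 5.85 and 5.79 CPM in shE6AP and 4.72, 4.98 and 4.68 CPM in wobble (0.25, SE 0.102, adjusted p = 0.0313), and PCDHGA7 1.79, 1.4 and 2.08 CPM in shE6AP and 1.19, 1.59 and 0.958 CPM in wobble (0.50, SE 0.199, adjusted p = 0.0285). PCDHGA7 passed although its groups overlapped. PCDHGB2 had 3.57, 4.02 and 3.67 CPM in shE6AP and 3.5, 4.29 and 4.13 CPM in wobble, and PCDHGB7 1.16, 1.17 and 1.5 CPM in shE6AP and 1.35, 1.45 and 1.25 CPM in wobble, neither past the threshold. The other 7 tested gamma genes were below 1 CPM and did not pass, with fold changes of 0.12 to 0.70. The 18 gamma genes with a row summed to 43.8, 45.8 and 46.1 CPM in shE6AP and 41.1, 43.6 and 41.7 CPM in wobble. Though close, the groups did not overlap in this sum. PCDHGA2, PCDHGA4, PCDHGA9, PCDHGB3 and PCDHGB5 had no row and are in none of these counts, shares and sums. With DESeq2, 2 of the 4 rises, PCDHGA7 and PCDHGB4, were not called, and with no filter on low counts PCDHGB4 was not. The PCDHGB4 call (0.23 to 0.28 with 1 library left out) was lost without shE6AP library 2 or 3 or wobble library 1 or 3, and that of PCDHGA7 (0.35 to 0.71) without shE6AP library 1 or 3 or wobble library 1 or 3.

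The protocadherin clusters lie side by side on chromosome 5, and their genes resemble each other closely. Reads that match several copies may have been left out or given to the wrong copy, so their values are uncertain. In GENCODE release 29 between 36.9% and 78.7% of an alpha gene's exon bases are shared with no other gene, since alpha genes splice to common last exons, as gamma genes do; for beta genes with an entry, which lack them, it was 75.1% to 100%. Reads on the common exons cannot be given to 1 gene. Over all 45 tested genes of the clusters 14 rose and 6 fell, or 44.4% called, beside 59% of all genes tested, and their median fold change was 0.17. The level summed over the 51 cluster genes with a row was 163.9 ± 1.33 CPM in shE6AP and 161.1 ± 1.39 CPM in wobble. Though close, these groups did not overlap, with 163.1 to 165.4 CPM in shE6AP and 159.5 to 161.9 CPM in wobble.

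Protocadherins outside the clusters were low, and 0 of the 4 tested passed edgeR's threshold. DESeq2 also called 0 and limma-voom called PCDH11X. In edgeR 2 of the 4 had an unadjusted p under 0.05. The groups did not overlap in 3 of the 4, all higher in shE6AP, beside 30.6% of all genes tested. The summed level of the 8 genes was 8.17 ± 0.0765 CPM in shE6AP and 6.59 ± 0.135 CPM in wobble, without overlap. PCDH12, a protocadherin known from endothelium, had 5.15, 5.57 and 5.83 CPM in shE6AP and 4.55, 4.91 and 4.72 CPM in wobble. Every shE6AP library was above every wobble library, but the fold change of 0.22 (SE 0.105) did not pass (adjusted p = 0.0705); with upper-quartile scaling it did. Of the 7 endothelial markers 2 rose, ESAM (0.75) at 6.48 ± 0.468 CPM in shE6AP and 3.86 ± 0.0525 CPM in wobble, and TEK (0.88, adjusted p = 0.0471) below 1 CPM. TIE1 had 17.2 ± 0.988 CPM in shE6AP and 16.5 ± 0.949 CPM in wobble and did not pass, and VWF, KDR, CLDN5 and CDH5 were below 1 CPM in all libraries. The part of these markers in the PCDH12 values was not tested. PCDH1, known from airway epithelium, had 72 reads over the shE6AP libraries and 61 over the wobble libraries (0.46, SE 0.242, adjusted p = 0.1). PCDH11X had 59 reads over the shE6AP libraries and 45 over the wobble libraries (0.61, SE 0.276, adjusted p = 0.0548). Its near-identical copy PCDH11Y had 47 reads over the shE6AP libraries and 50 over the wobble libraries (0.13, SE 0.3). Reads that match both copies may have been left out or given to the wrong copy. PCDH9 had 5, 5 and 2 reads in shE6AP and 0, 1 and 0 in wobble, and passed only when low counts were not filtered. PCDH15, of inner ear tip links, had 1 read in shE6AP and 0 in wobble. PCDH10 and PCDH19, known from brain, had at most 6 reads in a group.

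Genes that work with the family moved in both directions, and the counts below stand beside 59% of all genes tested that were called. Values are means with the SD over 3 libraries and, in brackets, the log2 fold change of genes past the threshold. Of 27 tested adherens junction partners 8 rose and 11 fell, with a median of -0.05. The 3 with the smallest p values fell, while others such as ACTN1 and TJP1 rose. ACTN4, alpha-actinin-4, had 657 ± 26.9 CPM in shE6AP and 1183 ± 21.7 CPM in wobble (-0.85). VCL, vinculin, which binds alpha-catenin under tension, had 409.5 ± 6.39 CPM in shE6AP and 593 ± 14.3 CPM in wobble (-0.53). LIMA1, an actin-binding protein linked to alpha-catenin, had 106 ± 2.98 CPM in shE6AP and 158 ± 3.61 CPM in wobble (-0.58). ACTN1, alpha-actinin-1, had 426 ± 6.46 CPM in shE6AP and 355 ± 6.03 CPM in wobble (0.26), and TJP1, a scaffold of tight junctions, 304 ± 9.41 CPM in shE6AP and 247 ± 7.17 CPM in wobble (0.30); these 2 were named after their values were seen. Among 21 partners of beta-catenin in destruction and transcription 9 rose and 4 fell. FBXW11, a ubiquitin ligase subunit that recognises phosphorylated beta-catenin, had 58.4 ± 1.86 CPM in shE6AP and 96.5 ± 0.765 CPM in wobble (-0.72). GSK3B, a kinase that marks beta-catenin for destruction, had 119.6 ± 3.98 CPM in shE6AP and 83.2 ± 1.69 CPM in wobble (0.52), and BCL9L, a coactivator, 280.3 ± 12.2 CPM in shE6AP and 184 ± 4.44 CPM in wobble (0.61). Of 16 tested beta-catenin and TCF target genes 7 rose and 6 fell. AXIN2 and LEF1, which rose, and TCF7, which fell, are in both of these lists and are counted in each. NKD1 and NKD2, feedback inhibitors of Wnt signalling, were higher, at 4.02 ± 0.447 CPM in shE6AP and 1.6 ± 0.144 CPM in wobble (1.32) for NKD1 and 60.0 ± 2.9 CPM in shE6AP and 29.5 ± 1.6 CPM in wobble (1.03) for NKD2. CD44, a hyaluronan receptor, was lower, at 102 ± 2.84 CPM in shE6AP and 296 ± 4.94 CPM in wobble (-1.54).

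Regulators of cadherin transcription also split. Of 7 tested repressors of cadherin genes 1 rose and 2 fell. KLF8, a repressor of CDH1, had 6.37 ± 0.559 CPM in shE6AP and 0.672 ± 0.14 CPM in wobble (3.23), while TCF3, an E-box factor, had 159 ± 1.41 CPM in shE6AP and 223 ± 5.52 CPM in wobble (-0.49) and SNAI2, known as Slug, 1.37 ± 0.224 CPM in shE6AP and 4.01 ± 0.587 CPM in wobble (-1.56). Of 8 tested activators 2 rose and 2 fell. ELF3, an epithelial ETS factor, had 37.5 ± 2.13 CPM in shE6AP and 67.0 ± 1.44 CPM in wobble (-0.84), and FOXA1, a pioneer factor of epithelia, 75.1 ± 1.84 CPM in shE6AP and 55.9 ± 1.51 CPM in wobble (0.42). FOXA2 rose (5.83), with 24, 22 and 22 reads in shE6AP and 1, 0 and 0 in wobble, so the size of its fold change rests on 1 wobble read. Among 15 genes of clustered protocadherin promoter choice, which include CTCF, cohesin and silencing factors, 6 rose and 5 fell. RAD21, a cohesin subunit, had 253 ± 1.19 CPM in shE6AP and 346 ± 4.4 CPM in wobble (-0.45), and NIPBL, which loads cohesin, 186 ± 2.26 CPM in shE6AP and 240.3 ± 12 CPM in wobble (-0.37). SMCHD1, a silencing factor of the cluster, had 203 ± 10.6 CPM in shE6AP and 143 ± 8.39 CPM in wobble (0.51).

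Proteases that mature or cut cadherins numbered 16 tested, with 5 higher and 7 lower. CAPN1, calpain-1, had 115 ± 5.21 CPM in shE6AP and 180.5 ± 5.79 CPM in wobble (-0.65), ADAM9, a membrane protease, 1007 ± 5.26 CPM in shE6AP and 760.4 ± 17.5 CPM in wobble (0.41), and PCSK7, a proprotein convertase, 63.0 ± 1.84 CPM in shE6AP and 86.5 ± 2.39 CPM in wobble (-0.46). Cadherin relatives outside the family rule, such as FAT, CELSR and desmosomal genes, were 8 higher and 6 lower of 20. FAT4, a giant cadherin of planar polarity and Hippo signalling, had 50.2 ± 0.748 CPM in shE6AP and 73.1 ± 5.62 CPM in wobble (-0.54), and CELSR2, a cadherin with a G protein-coupled receptor fold, 44.3 ± 1.95 CPM in shE6AP and 55.2 ± 0.806 CPM in wobble (-0.32). CDHR3, known as a rhinovirus C receptor of the airway, had 11.6 ± 0.385 CPM in shE6AP and 7.78 ± 0.821 CPM in wobble (0.58). Of 10 partners of protocadherin tails 4 rose and 4 fell. NCKAP1, of the WAVE complex, had 189.7 ± 4.36 CPM in shE6AP and 271 ± 7.29 CPM in wobble (-0.51), PTK2B, a kinase bound by clustered protocadherins, 21.9 ± 1.17 CPM in shE6AP and 11.2 ± 0.441 CPM in wobble (0.97), and PPP1CA, a phosphatase subunit, 122 ± 2.19 CPM in shE6AP and 175 ± 9.63 CPM in wobble (-0.52).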

How the data were processed

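TRIzol RNA of DU145 cells gave 6 TruSeq RNA libraries, per the labels' protocols. The deposited table holds raw read counts per gene, made by the authors with TopHat2 2.0.13, Bowtie2 and HTSeq on hg19, per the submitters' processing notes. The annotation is not given in the sources used here, nor is the strand setting. The kit marks no strand, and reads of overlapping antisense genes cannot be told apart.

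Kept out were 2 HTSeq summary rows (14.6% to 16.0% of reads outside genes and 2.05% to 2.21% ambiguous), 1 row without a name (at most 4.59e-05%) and 1 without values. Counts of 33835 genes were fitted in edgeR 4.0.16 (R 4.3.3) with filterByExpr, TMM and the quasi-likelihood test, with group as the only term. Each SE is the log2 fold change divided by the root of F. Within groups, chi-square per gene was 1.76 to 3.52, above counting noise, so no libraries were merged. Depth limits the low members, and read sums cover counting error only.

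Members, gene lists and tests were chosen with earlier results of these data known. Named were UBE3A, members with a mean of at least 1 CPM in either group, members at 0 reads in a whole group, and up to 3 passing genes of each list by smallest p. Other named members were chosen after their values were seen. List symbols were matched through synonyms; promoters matched 63 of 83 members. Alternatives were other scalings, filters, DESeq2 1.42.0, limma-voom (limma 3.58.1), glmTreat, an assumed variation, the replicate number as a block, and each library left out.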

Additional observations from a re-analysis of the deposited data

How the results depend on the processing

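Of 28 called members, 4 (CDH18, CDH26, PCDHB15 and PCDHB17) were called under all alternatives tried. Over 46 members, 713 of 823 alternative values kept their side of the threshold, 108 lost it, 2 gained it and 0 changed the direction of a call. Scaling, filters, DESeq2 and limma-voom gave 12 to 19 members higher and 8 to 11 lower, against 17 and 11. Against a fold of 1.2, glmTreat called 5637 genes, with 9 members higher and 7 lower; against 1.5 it called 1806, with 2 and 2. With an assumed coefficient of variation of 0.1, 6743 genes passed, with 11 members higher and 7 lower; with 0.2, 2237 passed, with 5 and 2. The coefficient estimated from the libraries was 2.77%. Leaving out 1 library gave 10708 to 11084 genes, 13 to 16 members higher, 8 to 11 lower, and a UBE3A fold change of -1.97 to -1.92. With no filter, CDH5, CDH22, PCDH9 and PCDHGA12 were called and PCDHAC1, PCDHB12 and PCDHGB4 were not. With the replicate number as a block, 11979 genes passed, with 17 members higher and 11 lower, all 28 member calls kept. Deviations of same-numbered libraries correlated at 0.0438, 0.0166 and 0.0372, each the highest for its number but below 0.1, so the number was not taken to pair the libraries. Depth limits the 22 untested members, at 30 reads or fewer in a group.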
